A study of Mus musculus with 1073 samples.

Results

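The 10 genes of the endothelial junction and cell surface were followed through 13 sorted populations of the mouse yolk sac. The 10 genes were Cdh5, Pecam1, Esam, Cldn5, Emcn, Mcam, Icam2, Plvap, Cd34 and Eng, taken as a named list. All 10 were among the 15967 genes of the deposited counts and normalised values. Endothelial cells carried the whole set at both E8.5 and E10.5. Of the set, Pecam1, Icam2 and Cd34 were found in most progenitors at E10.5, Pecam1 and Esam in most E10.5 megakaryocytes, and Cldn5 and Emcn in no megakaryocyte at either stage.

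As background, endothelial cells are joined to each other by adherens junctions, built on VE-cadherin, and by tight junctions. The latter are built on claudins and, as a separate family, on adhesion molecules of the immunoglobulin type. Their free surface carries sialomucins, a diaphragm protein and growth factor receptors. In the yolk sac, endothelium and blood arise from FLK1-positive mesoderm, and the erythro-myeloid progenitors emerge from endothelium and then lose contact with it.

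Single cells were captured on microfluidic chips and their transcripts sequenced at full length. All embryos were C57BL/6, and those of E7.25 and E7.75 carried a GFP reporter in 1 allele of the FLK1 gene (Flk1-GFP/+) and were sorted on GFP. The other populations were sorted with antibodies. Haematopoietic progenitors (HPC), which the labels call erythro-myeloid progenitors, were TER119- CDH5+ CD41+ at E8.25 and E8.5 but TER119- CDH5- CD45+ CD41low at E9.5 and E10.5. Megakaryocytes (Mk) were TER119- CDH5- CD41+ at E8.5 and TER119- CDH5- CD45- CD41high at E10.5. Primitive erythroid cells (EryP) were CD41- CDH5- TER119+ at E8.5 and also CD45- at E10.5, and E10.5 macrophages (Mac) were TER119- CDH5- CD41- CD45+. Endothelial cells (Endo) were TER119- CD41- CDH5+ at E8.5 and also CD45- at E10.5. CDH5 protein was therefore part of every antibody gate, and the gates of HPC E8.5 and HPC E10.5 were opposite for it. So were those of HPC E8.5 and Mk E8.5, and of Endo E8.5 and Mk E8.5 or EryP E8.5. At E10.5, the Endo gate was opposite to those of HPC, Mk and Mac. A call of Cdh5 in these comparisons is part of what the gates took. The level of Cdh5 between populations is given as a description of what the gates took.

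The filtered tables held 926 of 1073 captured cells, with 484539 to 5955450 counts per cell and a median of 1.89e+06. There were 73 and 74 FLK1-positive cells in the 2 lanes of E7.25, 140 FLK1-positive cells of E7.75, 73 HPC of E8.25, 89 of E8.5, 46 of E9.5 and 87 of E10.5. There were 37 Mk of E8.5, 73 Mk of E10.5, 66 EryP of E8.5, 3 EryP of E10.5, 25 Mac, 79 Endo of E8.5 and 61 Endo of E10.5. The 3 EryP cells of E10.5 held none of the set in at least 50% of cells, against 31.5% of all genes, and entered no comparison. One flow cell carried E7.25, E8.25 and E8.5 and the other E7.75, E9.5 and E10.5, so a change of stage across them cannot be told apart from a change of run. The labels do not say which cells shared an embryo or a pool, so a population is 1 sample and no p-value was computed. Intervals are exact (Clopper-Pearson) 95% binomial intervals and cover counting error only. For a gene found in no cell, the limit given is a separate approximation, 3 cells of the total, and lies a little under the exact upper bound.

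The sorted populations were set against marker genes outside the set. The summed level of 4 endothelial markers (Kdr, Tek, Aplnr, Ramp2) had a median of 1831 CPM per cell in Endo E8.5 and 3146 in Endo E10.5. It was 398 in HPC E8.25, 253 in HPC E8.5, 22.9 in HPC E9.5 and 17.2 in HPC E10.5. In 45 of 73 HPC of E8.25 and 53 of 89 of E8.5, at least 3 of these markers had 10 or more counts, compared with 6 of 46 at E9.5 and 5 of 87 at E10.5. No Mk, Mac or EryP cell met that count. The label of the E8.5 megakaryocytes went against part of their transcripts. Their erythroid markers summed to a median of 2394 CPM and their megakaryocyte markers to 184, whereas Mk E10.5 stood at 0 and 5331. Of the cells in the Mk E8.5 gate, 20 of 37 had at least 3 of 5 megakaryocyte markers at 10 or more counts, compared with 73 of 73 in Mk E10.5. Ratios that rest on the cells labelled Mk E8.5 were therefore also computed without the other 17.

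**Figure D1:**
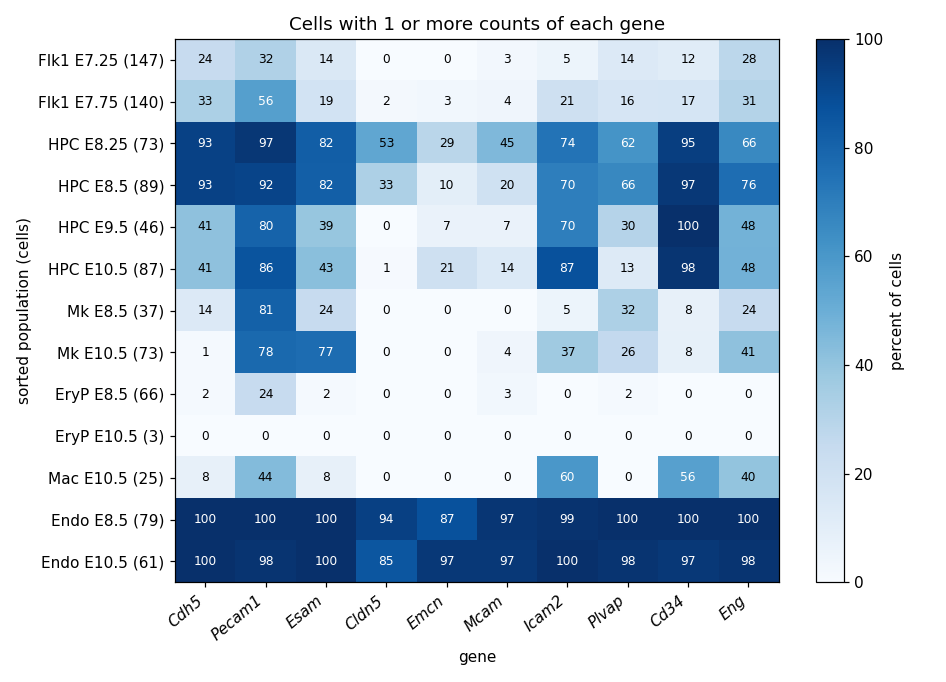
Percent of cells with at least 1 count of each of the 10 genes (columns) in each sorted population (rows), shown as a colour scale with the percentage written in each field. Both endothelial rows lie between 85.2 and 100%, and the Cldn5 and Emcn columns are at 0 in both megakaryocyte rows.

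The genes lie on 7 chromosomes (GRCm38). Cdh5 and Plvap are on chromosome 8, at chr8:104101625-104144511 on the plus strand and chr8:71497765-71511752 on the minus strand. Pecam1 (chr11:106654217-106750628) and Icam2 (chr11:106377656-106388075) are both on the minus strand of chromosome 11, 266142 bp apart. Esam (chr9:37528078-37538319) and Mcam (chr9:44134469-44142727) are both on the plus strand of chromosome 9. Cldn5 (chr16:18776847-18778262, plus strand) consists of 1 exon, and the other genes have several. Emcn is at chr3:137341067-137432185, Cd34 at chr1:194938819-194961279 and Eng at chr2:32646595-32682669, all on the plus strand. Exons of Eng share 61 of 4048 bases with Fpgs on the opposite strand, and exons of Cd34 and Mcam overlap those of Gm16897 and Gm10687 on the opposite strand. Where the counting did not use strand, reads from such stretches cannot be told apart. Fpgs was found in 68.0% of E7.25 cells, and Eng was found in 28.0% of the cells with Fpgs and 27.7% of those without.

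Upstream windows of RefSeq (GRCm38.p6) were matched for 5 of the 10 genes, Cd34, Eng, Emcn, Mcam and Cldn5. Those of Eng, Emcn and Cldn5 are shown because Eng was present from E7.25, while Cldn5 and Emcn were in no E7.25 cell and no megakaryocyte. Mcam was close to that pair at E7.25, with 2.72% of cells. Capitals mark the ETS core GGAAG or, for a match on the other strand, CTTCC. The window of Eng, chr2:32646345-32646594 on the plus strand, and that of Emcn, chr3:137340828-137341066 on the plus strand, held 2 matches each. The window of Cldn5, chr16:18776597-18776846 on the plus strand, held none.

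Eng: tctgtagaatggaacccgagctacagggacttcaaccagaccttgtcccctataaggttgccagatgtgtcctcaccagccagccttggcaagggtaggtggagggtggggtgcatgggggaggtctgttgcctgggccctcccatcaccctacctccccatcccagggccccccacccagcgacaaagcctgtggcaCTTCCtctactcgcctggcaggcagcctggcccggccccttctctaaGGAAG

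Emcn: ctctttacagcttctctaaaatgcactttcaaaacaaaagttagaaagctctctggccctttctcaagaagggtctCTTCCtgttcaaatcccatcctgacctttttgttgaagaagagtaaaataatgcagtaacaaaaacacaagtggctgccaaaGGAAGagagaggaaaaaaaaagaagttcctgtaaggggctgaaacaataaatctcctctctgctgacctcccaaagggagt

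Cldn5: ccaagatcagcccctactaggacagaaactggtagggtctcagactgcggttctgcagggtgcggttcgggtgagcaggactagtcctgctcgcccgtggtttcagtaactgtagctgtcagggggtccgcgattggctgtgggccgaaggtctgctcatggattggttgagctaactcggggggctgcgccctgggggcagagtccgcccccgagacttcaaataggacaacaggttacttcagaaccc

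The core GGAAG, searched on both strands, is present in 64.1% of 32851 such windows of all genes, so a match is common. The GATA motif AGATAA, present in 9.99% of all windows on either strand, was in none of the 5. Of the Mcam window, 189 of 250 bases lie in an annotated exon, so little of it is upstream of the gene. No match says only that these letters are not in the window.

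The order of onset was read from the share of cells in which at least 1 count of a gene was found. In FLK1-positive cells of E7.25, none of the 10 genes reached 50% of cells, compared with 54.2% of all genes. Pecam1, a homophilic adhesion molecule of the immunoglobulin family, was found in 32.0% of cells (24.5 to 40.2). Eng, a co-receptor for ligands of the TGF-beta family, was found in 27.9% (20.8 to 35.9), and Cdh5, the cadherin of endothelial adherens junctions, in 24.5% (17.8 to 32.3). The intervals of these 3 genes overlapped.

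Esam, an adhesion molecule of tight junctions also present on platelets, was found in 14.3% of E7.25 cells (9.07 to 21.0). Plvap, the protein of the diaphragms of fenestrae and caveolae, was in 13.6% (8.51 to 20.2), and Cd34, a sialomucin of endothelium and progenitors, in 11.6% (6.88 to 17.9). Icam2, a ligand of leukocyte integrins, followed with 5.44% (2.38 to 10.4), and Mcam, an adhesion molecule of the vessel wall, with 2.72%. Cldn5, the main claudin of endothelial tight junctions, and Emcn, a sialomucin prominent on veins and capillaries, were found in 0 cells of E7.25, and a count of 0 allows up to 2.04%. The genes thus ran from a group found in over 24% of cells to a pair not detected at this depth.

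At E7.75, 1 of the 10 genes, Pecam1, was found in at least 50% of cells, compared with 54.4% of all genes. Its share was 56.4% (47.8 to 64.8), above the E7.25 interval. That of Icam2 was 20.7% (14.3 to 28.4), also above the E7.25 interval. Cdh5 was found in 32.9% (25.2 to 41.3), Esam in 18.6% (12.5 to 26.0) and Eng in 30.7%, and these shares overlapped those of E7.25. Plvap and Cd34 were found in 16.4 and 17.1% of cells. Cldn5 was found in 2.14% (0.444 to 6.13) and Emcn in 2.86% (0.784 to 7.15) of E7.75 cells.

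Each of the early stages was captured in 2 lanes, and the lanes of a stage showed how far a share moved without any change of stage. At E7.25, Pecam1 was found in 32.9 and 31.1% of the cells of the 2 lanes and Cdh5 in 26.0 and 23.0%. Esam differed more, with 20.5 and 8.11%, as did Cd34 with 15.1 and 8.11%. At E7.75, the lanes gave 54.7 and 57.5% for Pecam1 and 24.5 and 18.4% for Icam2, so the higher shares of both genes were present in each lane.

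**Figure D2:**
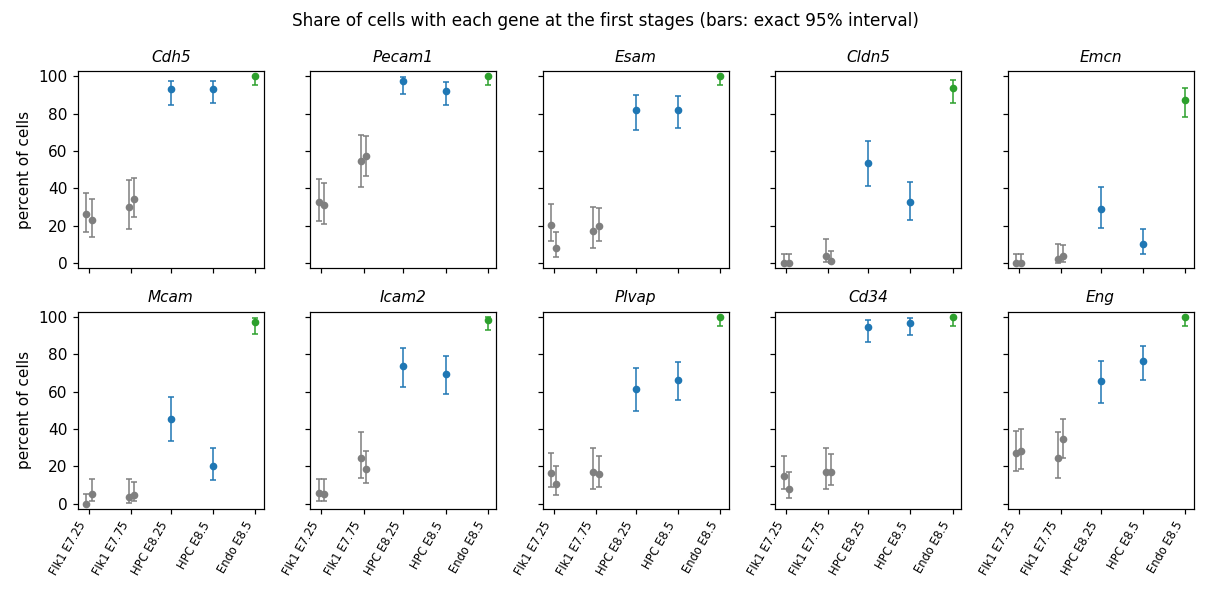
Percent of cells with at least 1 count (vertical axis) for each of the 10 genes in the lanes of E7.25 and E7.75, in HPC E8.25, HPC E8.5 and Endo E8.5, with exact 95% intervals. Pecam1 stands at 54.7 and 57.5% in the E7.75 lanes. Cldn5 and Emcn lie near 0 in the FLK1-positive cells and at 53.4 and 28.8% in HPC E8.25, which differ in gate as well as stage.

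In levels (CPM, counts scaled by the authors with a size factor for each cell), no gene of the set was called at 4-fold between E7.75 and E7.25, compared with 1.08% of all genes higher and 0.9% lower. A call needed a mean of at least 10 CPM in either population, which only Pecam1 and Esam had. Pecam1 had a mean of 6.07 CPM at E7.25 and 25.7 CPM at E7.75, a log2 ratio of 1.92. Esam had 3.92 and 18.6 CPM, a log2 ratio of 2.00 that lay just under the 4-fold limit, at 3.99-fold. Icam2, with 0.464 and 9.62 CPM, had a log2 ratio of 2.86 but stayed under the minimum. The Esam mean rested on a minority of cells at both stages.

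Within the FLK1-positive cells, most genes of the set were found more often in the cells that also held haemato-endothelial regulators. A cell was counted as such where at least 4 of the 6 genes Tal1, Lmo2, Fli1, Gata2, Hhex and Kit were found, which 86 cells of E7.25 met and 61 did not. Cdh5 was found in 37.2% of these 86 cells and 6.56% of the others, Eng in 43.0 and 6.56%, and Plvap in 23.3 and 0%. At E7.75, where 91 of 140 cells met the count, Cdh5 was found in 47.3 and 6.12% and Esam in 28.6 and 0%. Pecam1 was frequent outside the class as well, with 64.8 and 40.8% at E7.75 and 41.9 and 18.0% at E7.25. Eng, by contrast, was found in 30.8 and 30.6% and Cd34 in 17.6 and 16.3% of the E7.75 cells with and without the regulators. Both counts are of detected genes in the same cells, so depth is shared between them.

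The genes were also found together in single cells. At E7.75, 80.8% of the 26 cells with Esam held Cdh5, compared with 21.9% of the cells without Esam. The 3 cells with Cldn5 all held Cdh5, Pecam1, Esam, Icam2, Cd34 and Eng, and none of them held Emcn. Of the 4 cells with Emcn, 3 held Cdh5. At least 5 of the 10 genes were found in 4.76% of E7.25 cells (1.94 to 9.57) and 10.0% of E7.75 cells (5.58 to 16.2). No gene of the set was found in 58 cells of E7.25 and 25 of E7.75.

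**Figure D3:**
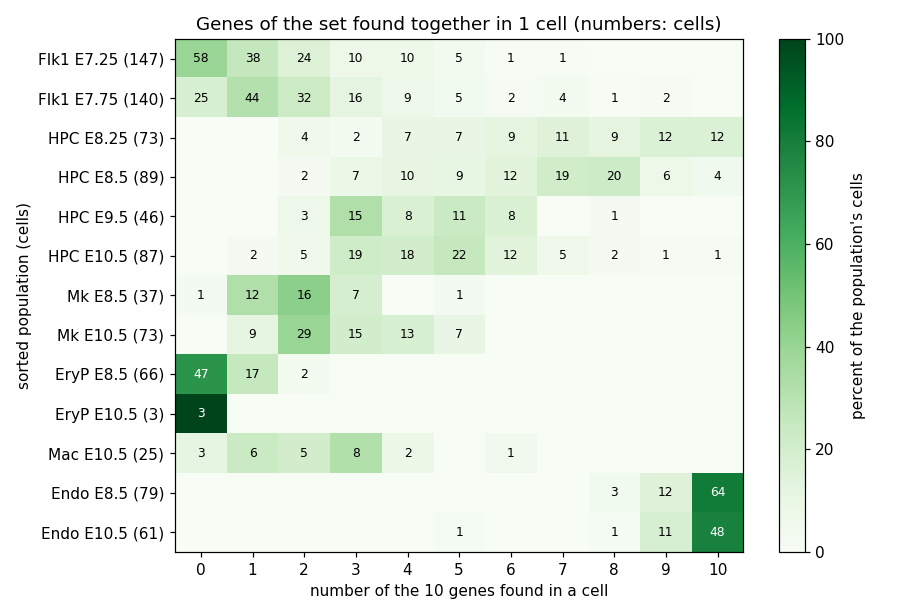
Number of cells (written in each field) by how many of the 10 genes were found in the cell (horizontal axis), for each population (vertical axis). Colour gives the percent of the population's cells. Endo E8.5 and Endo E10.5 hold 64 and 48 cells with all 10 genes, whereas 47 of the 66 EryP E8.5 cells hold none.

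The CDH5+ CD41+ progenitors of E8.25 carried most of the set. Gate and genotype differed between them and the FLK1-positive cells, and the flow cell differed from that of E7.75. A higher share in these progenitors therefore cannot be told apart from what the gate took. In HPC E8.25, 8 of the 10 genes were found in at least 50% of cells, compared with 53.6% of all genes. The exceptions were Mcam with 45.2% (33.5 to 57.3) and Emcn with 28.8% (18.8 to 40.6). Cldn5 was found in 53.4% (41.4 to 65.2). Pecam1, Cd34 and Cdh5 were found in 97.3, 94.5 and 93.2% of cells, Esam in 82.2%, Icam2 in 74.0%, Eng in 65.8% and Plvap in 61.6%. At least 5 genes were found in 82.2% of cells, and all 10 in 12 cells.

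These shares moved with the endothelial markers of the cells. The 45 HPC of E8.25 with endothelial markers held a median of 9 of the 10 genes and the other 28 a median of 5. In those 28 cells, Cldn5 was found in 10.7% and Emcn in 7.14%, whereas Cdh5 was still present in 82.1%. Its mean in them was 229 CPM and its median 14.3 CPM. Across all 73 cells, the mean log2 level of the set followed that of the 4 markers (Spearman's rho of 0.87 over cells of the same library, given as a description). Without the marked cells, 4 genes were found in at least 50% of cells.

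In HPC E8.5, 7 of the 10 genes were found in at least 50% of cells, compared with 55.7% of all genes. Cldn5 was found in 32.6% (23.0 to 43.3), Mcam in 20.2% (12.4 to 30.1) and Emcn in 10.1% (4.73 to 18.3). The shares of all 3 genes lay below the E8.25 intervals. No gene was called at 4-fold between HPC E8.5 and HPC E8.25, where 0.349% of all genes were higher and 0.619% lower. The log2 ratios of Emcn, Mcam, Pecam1 and Cdh5 were -1.89, -1.46, -1.24 and -0.99. Without the cells holding endothelial markers, Emcn turned to 0.71, Mcam and Pecam1 were at -0.36 and -0.49, and Cdh5 passed the 4-fold limit with -2.29. That Cdh5 ratio rests on means of 229 CPM at E8.25 and 45.9 CPM at E8.5. The Cdh5 medians in the remaining cells were close, 14.3 and 13.5 CPM. Cldn5 and Icam2 also turned, from -0.41 to 1.65 and from -0.67 to 0.77.

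The endothelial cells of E8.5 held the whole set. All 10 genes were found in at least 50% of Endo E8.5 cells, compared with 51.8% of all genes, and 64 of 79 cells held all 10. The shares ran from 87.3% for Emcn and 93.7% for Cldn5 to 100% for Cdh5, Pecam1, Esam, Plvap, Cd34 and Eng. In Endo E10.5, all 10 genes were again found in at least 50% of cells, compared with 38.9% of all genes, with shares from 85.2% for Cldn5 to 100% for Cdh5, Esam and Icam2.

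Against HPC E8.5, 6 of the 10 genes were at least 4-fold higher in Endo E8.5 and 0 lower, compared with 7.39% of all genes higher and 2.87% lower. The adherens junction gene Cdh5 had a lowest, median and highest value of 60.1, 461 and 1565 CPM in Endo E8.5 and 0, 79.6 and 1219 CPM in HPC E8.5, a log2 ratio of means of 2.08. The quartile ranges of the 2 populations did not overlap, although single progenitors reached the endothelial level. Mcam, with a median of 62.5 CPM and a highest cell of 739 CPM in endothelium, had a median of 0 and a highest cell of 61.3 CPM in progenitors, and a log2 ratio of 4.41. Emcn followed with a log2 ratio of 4.09, from medians of 114.9 and 0 CPM.

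Plvap, Icam2 and Pecam1 had log2 ratios of 2.89, 2.82 and 2.05. Esam, Cldn5 and Eng, with 1.85, 1.84 and 1.53, stayed under the limit. Cd34 stood apart, with a log2 ratio of -0.15: its lowest, median and highest values were 5.11, 262 and 1441 CPM in Endo E8.5 and 0, 339 and 1459.7 CPM in HPC E8.5, and the ranges overlapped throughout. The median log2 ratio was 2.06 over the set and -0.03 over all genes. With the 53 progenitors holding endothelial markers left out, the log2 ratios of Esam, Cldn5 and Eng were 3.03, 4.16 and 2.40, and that of Cd34 was 1.02.

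Against the other E8.5 populations, all 10 genes were at least 4-fold higher in Endo E8.5, compared with 13.5% of all genes higher and 5.23% lower against Mk E8.5, and 17.9% higher and 5.21% lower against EryP E8.5. The same held against the FLK1-positive cells of E7.75, where 8.78% of all genes were higher and 4.31% lower. There the log2 ratio was largest for Emcn with 6.52 and Mcam with 6.01 and smallest for Pecam1 with 3.36 and Eng with 3.95. Against only the 20 Mk E8.5 cells with megakaryocyte markers, all 10 genes were again called, and Pecam1 had a log2 ratio of 3.36 in place of 2.33. These comparisons share the Endo E8.5 cells, and the gates of Mk E8.5 and EryP E8.5 were opposite to Endo for CDH5.

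The progenitors of E9.5 and E10.5, sorted as CDH5-, kept 3 of the genes in most cells. Pecam1, Icam2 and Cd34 were the 3 genes found in at least 50% of cells in both, compared with 56.5% of all genes in HPC E9.5 and 57.5% in HPC E10.5. Pecam1 was found in 80.4 and 86.2%, Icam2 in 69.6 and 87.4%, and Cd34 in 100 and 97.7% of cells at E9.5 and E10.5. Cdh5 was found in 41.3% (27.0 to 56.8) and 41.4% (30.9 to 52.4), although the gate took cells without the protein. Esam was found in 39.1 and 42.5% and Eng in 47.8 and 48.3%. Cldn5 was in 0 of 46 cells at E9.5, which allows up to 6.52%, and in 1.15% at E10.5.

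Between HPC E8.5 and HPC E10.5, 9 genes passed the minimum level, and 4 of them were at least 4-fold lower at E10.5, and 0 were higher, compared with 2.96% of all genes lower and 3.84% higher. The 4 were Cldn5, Cdh5, Eng and Esam, with log2 ratios of -4.04, -3.16, -2.24 and -2.21. Cdh5 had a lowest, median and highest value of 0, 0 and 662 CPM in HPC E10.5, and its quartile range ended below that of HPC E8.5. Esam had 0, 53.5 and 946 CPM in HPC E8.5 and 0, 0 and 358 CPM in HPC E10.5, with quartile ranges that overlapped. Both the gate for CDH5 and the run differed between the 2 populations, so neither can be told apart from stage.

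Cd34, Icam2 and Pecam1 had log2 ratios of 0.03, -0.02 and -0.39 in that comparison. By medians, Icam2 had 29.5 CPM in HPC E10.5 and 5.37 CPM in HPC E8.5, a log2 ratio of 2.26. Its share of cells was 87.4% in HPC E10.5 and 69.7% in HPC E8.5. Plvap was at -1.45 and Emcn at 0.91. The median was -0.94 over all 10 genes of the set and -0.08 over all genes tested. The number of cells with endothelial markers fell between the same populations, from 53 of 89 to 5 of 87. With those cells left out of both, Cdh5 was at -3.12, a gene for which the gates were opposite. No other gene of the set was past 4-fold: Esam was at -1.36, Eng at -1.42 and Cldn5 at -1.77. Icam2 and Cd34 were at 1.49 and 1.21.

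Emcn was found in 20.7% of HPC E10.5 (12.7 to 30.7), compared with 6.52% of HPC E9.5. It was the 1 gene of the 7 passing the minimum that was 4-fold higher at E10.5 than at E9.5, with a log2 ratio of 2.85, compared with 1.66% of all genes higher and 2.31% lower. Its mean of 17.6 CPM rested on few cells: the median was 0 and the highest cell was 777 CPM. Without the 5 HPC E10.5 cells and 6 HPC E9.5 cells holding endothelial markers, the log2 ratio was 1.39 and no gene passed 4-fold. In HPC E10.5, those 5 cells held a median of 8 of the 10 genes and the other 82 a median of 4. Leaving the 5 out lowered Cdh5 to 4.41 CPM and Plvap to 0.492 CPM, and left Cd34 at 404 CPM, Pecam1 at 49.6 CPM and Icam2 at 38.6 CPM.

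Cd34 was the gene of the set with the least difference between endothelium and progenitors. Its lowest, median and highest values were 0.75, 441 and 1797 CPM in HPC E9.5, 0, 346 and 1624 CPM in HPC E10.5, and 0, 358 and 2543 CPM in Endo E10.5. The order of its means was Endo E10.5, HPC E9.5, HPC E10.5, HPC E8.5, Endo E8.5 and HPC E8.25, and every neighbour in that order overlapped in quartile range. The next population, Mac, was separated from HPC E8.25, with a mean of 85.4 CPM and a median of 0.43 CPM. In Mk E10.5 the mean was 0.828 CPM. The Cd34 level of the early progenitors lay largely in the cells holding endothelial markers. Without those cells, the Cd34 median was 7.11 CPM in HPC E8.25 and 2.32 CPM in HPC E8.5. It was 429 CPM in HPC E9.5 and 321 CPM in HPC E10.5.

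**Figure D4:**
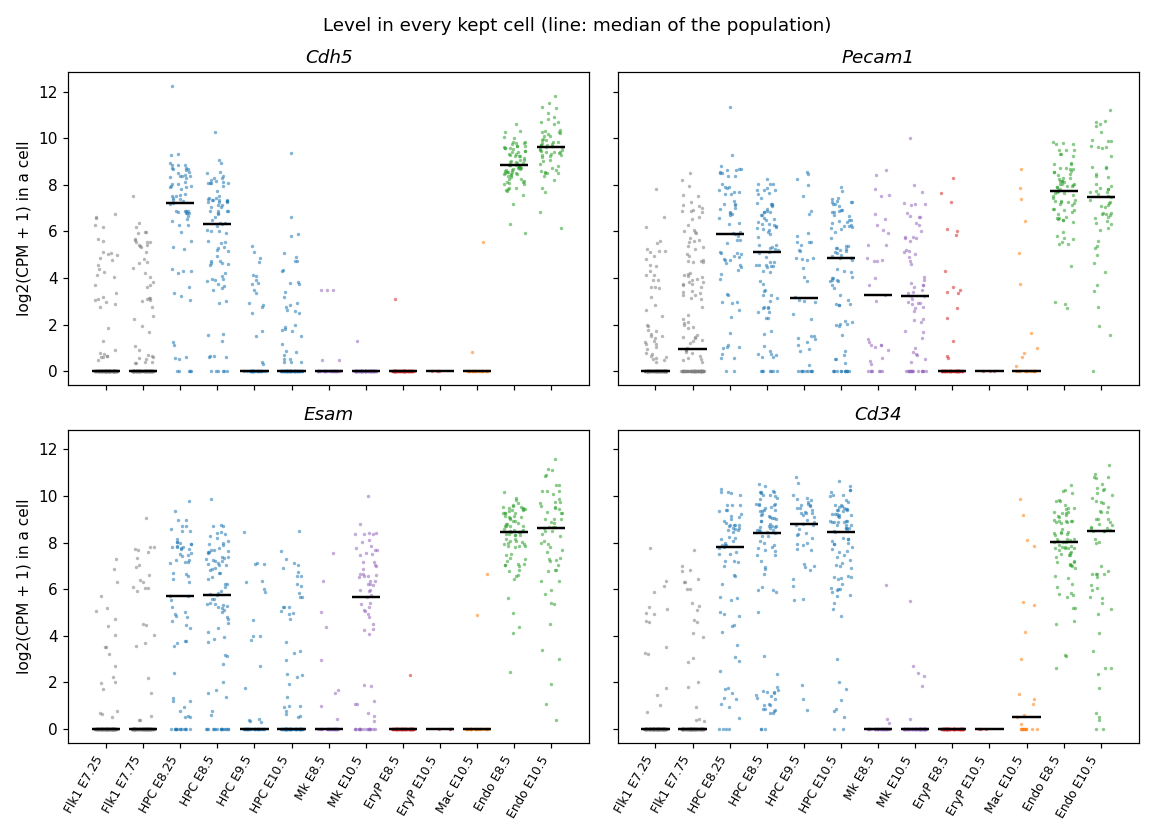
Level of Cdh5, Pecam1, Esam and Cd34 in every cell of each population as log2(CPM + 1), with a line at the median. Cd34 medians lie between 224 and 441 CPM in all 4 progenitor and both endothelial populations. Without the cells holding endothelial markers, those of HPC E8.25 and HPC E8.5 are 7.11 and 2.32 CPM. Esam has a median of 49.0 CPM in Mk E10.5 against 0 in Mk E8.5.

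Against HPC E10.5, 9 of the 10 genes were at least 4-fold higher in Endo E10.5 and 0 lower, compared with 17.3% of all genes higher and 8.52% lower. The 9 include Cdh5, for which the gates were opposite. The log2 ratios were 7.09 for Plvap, 6.65 for Mcam, 6.30 for Cldn5, 6.09 for Cdh5 and 5.21 for Emcn. Those of Eng, Esam, Icam2 and Pecam1 were 4.74, 4.62, 4.16 and 2.94. Cd34 was the exception with 0.34. The median was 4.97 over the set and 0.15 over all genes, and the all-gene median moved to -0.19 where counts were scaled by the total of each cell.

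In megakaryocytes, Pecam1 was found in most cells at both stages and Esam in most cells at E10.5. In the cells labelled Mk E8.5, Pecam1 was the 1 gene found in at least 50% of cells, compared with 53% of all genes. In Mk E10.5 there were 2 such genes, Pecam1 and Esam, compared with 47.9% of all genes. Pecam1 was found in 81.1% of Mk E8.5 (64.8 to 92.0) and 78.1% of Mk E10.5 (66.9 to 86.9). Its lowest, median and highest values were 0, 8.64 and 399.7 CPM at E8.5 and 0, 8.32 and 1040.0 CPM at E10.5. The quartile ranges of the 2 stages overlapped. The log2 ratio was -0.21, and it turned to 0.82 against only the 20 Mk E8.5 cells with megakaryocyte markers. For scale, Pecam1 was also present in 24.2% of EryP E8.5 cells, at a mean of 14.1 CPM.

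Esam was found in 24.3% of Mk E8.5 cells (11.8 to 41.2) and 76.7% of Mk E10.5 cells (65.4 to 85.8). Its lowest, median and highest values were 0, 0 and 185 CPM at E8.5 and 0, 49.0 and 1029 CPM at E10.5. The quartile range at E8.5 was 0 to 0, and that at E10.5 ran from 0.462 to 129.4 CPM. The mean was 10.1-fold higher at E10.5, a log2 ratio of 3.34. It was the 1 gene of the 3 passing the minimum that was called, compared with 6.1% of all genes higher and 3.26% lower.

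Esam differed between the cells of the Mk E8.5 gate with and without megakaryocyte markers. In the 20 cells with megakaryocyte markers, Esam was present in 35% (mean level 16.4 CPM), and in the other 17 it was present in 11.8% (mean level 0.131 CPM). Against the 20 cells alone, the log2 ratio of Mk E10.5 was 2.53, and over all alternatives it ranged from 2.53 to 5.64. Pecam1 went the other way, with 70% and 25.7 CPM in the 20 cells and 94.1% and 86.4 CPM in the other 17.

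The remaining genes were sparse in megakaryocytes. In Mk E10.5, Eng was found in 41.1% of cells, Icam2 in 37.0% (26.0 to 49.1), Plvap in 26.0% and Cd34 in 8.22% (3.08 to 17.0). Mcam was found in 4.11% and Cdh5 in 1.37%. Cldn5 and Emcn were in 0 of 73 cells, which allows up to 4.11% each, and in 0 of 37 cells at E8.5, which allows up to 8.11%. Endothelial markers outside the set were not all low in these cells: Kdr was found in 93.2% and Tek in 50.7% of Mk E10.5, while Aplnr was at 0.

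Compared with HPC E8.5, 6 of the 8 genes passing the minimum were at least 4-fold lower in Mk E8.5 and 0 higher, compared with 4.8% of all genes lower and 1.22% higher. Of the 8, only Pecam1 reached the minimum in Mk E8.5. The others passed it through HPC E8.5 alone and could not be called higher, so for them the 0 was set by the minimum. The 6 include Cdh5, for which the gates were opposite. Cd34, Cdh5, Icam2, Esam and Plvap had log2 ratios of -7.06, -6.09, -5.09, -3.46 and -2.83, and Cldn5 was at 0 in Mk E8.5. Pecam1, with -0.28, and Eng, with -1.73, were not called. With only the 20 Mk E8.5 cells holding megakaryocyte markers, the same 6 genes were called and Pecam1 was at -1.31. Without the progenitors holding endothelial markers, 4 genes were called: Plvap (-1.09) and Cldn5 (-1.77) were not, and Pecam1 turned to 0.55. Compared with Mk E10.5, all 10 genes, the gated Cdh5 among them, were at least 4-fold higher in Endo E10.5, where 18.1% of all genes were higher and 8.91% lower. The smallest ratio was that of Esam, 5.78-fold or 2.53 on the log2 scale, followed by Pecam1 with 3.04 and Eng with 3.62. Cldn5 and Emcn had no count in Mk E10.5, so their log2 ratios of 6.35 and 9.43 rest on the added 1 CPM and give no fold.

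**Figure D5:**
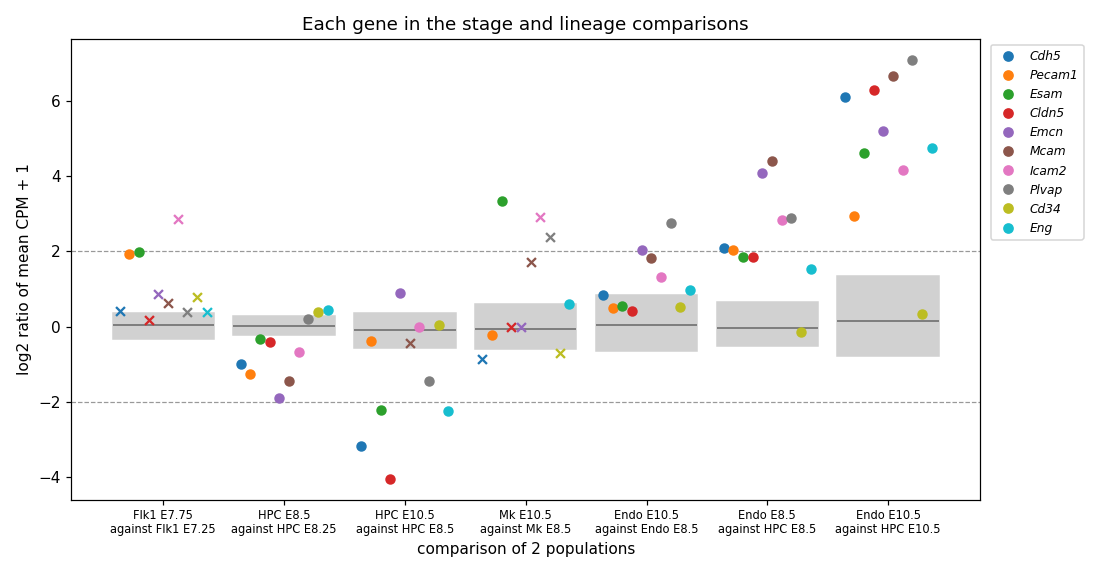
Log2 ratio of mean CPM + 1 (vertical axis) of each of the 10 genes in 7 comparisons of populations (horizontal axis). A grey box lies at the quartiles of all genes tested, with dashed lines at 4-fold and crosses for genes under the minimum of 10 CPM. Cd34 lies at -0.15 and 0.34 in endothelium against progenitors at E8.5 and E10.5, away from the other 9 genes. In Mk E10.5 against Mk E8.5, Esam is the 1 gene above the minimum past the line, and the crosses of Icam2 and Plvap also lie past it.

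Macrophages and erythroid cells completed the series. In Mac, Icam2 with 60% (38.7 to 78.9) and Cd34 with 56% (34.9 to 75.6) were the 2 genes found in at least 50% of the 25 cells, compared with 48.3% of all genes. With every cell thinned to 800000 counts both were found in 44%. Pecam1 was found in 44% and Eng in 40%, Cdh5 and Esam in 8% each, and Cldn5, Emcn, Mcam and Plvap in none. Compared with Mac, all 10 genes, the gated Cdh5 among them, were at least 4-fold higher in Endo E10.5, where 21.1% of all genes were higher and 12.6% lower. The smallest log2 ratio was 2.56 for Cd34. In EryP E8.5 no gene was found in at least 50% of cells, compared with 46.4% of all genes. Cldn5, Emcn, Icam2, Cd34 and Eng were in none of the 66 cells, which allows up to 4.55%.

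Within endothelium, 2 genes of the set were called between E10.5 and E8.5. Plvap and Emcn were at least 4-fold higher and 0 were lower, compared with 8.67% of all genes higher and 4.33% lower. Plvap had a lowest, median and highest value of 0.499, 80.2 and 504 CPM at E8.5 and 0, 307 and 5291 CPM at E10.5, and its mean was 6.74-fold higher. The quartile ranges did not overlap. Emcn had 0, 114.9 and 1524 CPM at E8.5 and 0, 259 and 4785 CPM at E10.5, with a mean 4.08-fold higher. Its quartile ranges overlapped, and cells of E10.5 were spread from 17.8 CPM at the lower quartile to 1217 CPM at the upper.

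Mcam and Icam2 had log2 ratios of 1.82 and 1.33, and the other 6 genes lay between 0.42 and 0.97. By medians in place of means, Plvap stood at 1.92 and Emcn at 1.16 and no gene was called, while Pecam1 and Cldn5 turned to -0.28 and -1.32. Over the alternatives run, Esam and Cd34 also turned, with lowest values of -0.18 and -0.58. Both stage and run differed between these populations. Across the 61 cells of E10.5, Cdh5 levels went with those of Plvap (rho of 0.53) and the arterial gap junction gene Gja4 (0.52), while Emcn went against the arterial gene Gja5 (-0.25). These are descriptions over cells of 1 capture that share library depth.

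Set against gene length, the order of levels in Endo E10.5 was Icam2 with 404 CPM per kb, Plvap with 306, Cdh5 with 227 and Esam with 202. Emcn and Mcam followed with 126.98 and 120.2, Cd34 with 69.9, Pecam1 with 61.9, Cldn5 with 56.8 and Eng with 48.1. Pecam1, found in more FLK1-positive cells than any other gene of the set, was thus among the lowest by this measure in endothelium. Ordered by mean level over populations, the quartile ranges of all neighbours overlapped for Pecam1, Esam, Cldn5, Emcn and Eng. For Cdh5 the range of Endo E8.5 was separated from that of the next population, HPC E8.25, and that of HPC E8.5 from HPC E10.5. For Mcam and Icam2 the separation lay after Endo E8.5. For Plvap it lay on both sides of Endo E8.5.

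The profile of means over 12 populations, leaving out EryP E10.5, was most alike for Mcam and Plvap (Pearson's r of 0.96) and least alike for Mcam and Cd34 (0.55). The populations share runs and scaling, and the values describe these 12 points. Of 12183 genes with at least 10 CPM in some population, those most like the mean profile of the set were Tfpi with 0.98, S100a16 with 0.97 and Egfl7 with 0.96. Tfpi, an inhibitor of coagulation, had 588 and 648 CPM in Endo E8.5 and Endo E10.5 and 199 CPM in HPC E8.5. For single members, the nearest genes were Adgrf5 for Cdh5 and Stab2 for Emcn, each with 0.99, and Sox18 for Cldn5 and Adamts5 for Mcam, each with 0.98. Icam2 was nearest to Gm14005 (0.97), and Esam to Gng11, Plvap to Ttc28, Cd34 to Nlrc3 and Eng to Ralb, each with 0.96. Pecam1 had the least close neighbour, Ulbp1 with 0.92.

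Kdr and Tek, receptors of the endothelium outside the set, were read beside it. Kdr, the gene of FLK1 and the basis of the sort at these stages, was present in 95.2% of E7.25 cells at a mean of 109.5 CPM and in 72.1% of E7.75 cells with 36.3 CPM. Tek was found in 36.7 and 68.6% of these cells, beside 32.0 and 56.4% for Pecam1. In HPC E10.5, where Cd34 stood at the endothelial level, Kdr had a mean of 13.3 CPM and Tek of 41.8 CPM, compared with 1527 and 887 CPM in Endo E10.5.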

How the data were processed

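The authors aligned the reads with Rsubread to the Ensembl release 84 mouse genome (GRCm38), counted reads per gene with featureCounts, removed cells with scater filters and scaled with scran size factors. Strand use in counting is not given in the sources used here, and the labels' processing notes name Subread and featureCounts without versions. The deposited files hold raw counts for all 1073 captured cells and for the 926 kept cells, and a normalised signal per gene that the authors made with calculateCPM. Its columns sum to 699615 to 4.18e+06, so it is not strict CPM. It is called CPM in the text.

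A gene was found in a cell where it had at least 1 count. Levels were compared as log2(mean CPM + 1), called at 4-fold among genes with a mean of at least 10 CPM in either population, over all 15967 genes. Ratios on this scale understate the change of low genes. A gene that reached the minimum in only 1 of the 2 populations could be called only towards that population. A count of 0 in the other direction is then set by the minimum. A population is 1 sample, so no test between populations was run. No doublets were removed beyond the authors' filter. All 10 genes, the nearest genes by Pearson correlation, the 4 junction genes with the largest ratio in each of 2 comparisons, and Kdr and Tek were named by rule. The members and lists were chosen with earlier results of these data known. Gene positions and lengths came from GENCODE M21 and upstream windows from RefSeq GRCm38.p6. Alternatives were detection at 10 counts, thinning to 800000 counts, all captured cells, each lane alone, medians and mean logs, pseudocounts of 0.1 and 10, scaling by total counts and no minimum. Leaving out cells with endothelial markers and keeping only Mk E8.5 cells with megakaryocyte markers were added after seeing the data. Calculations used Python 3.11.15 with scipy 1.17.1, numpy 2.4.6, matplotlib 3.10.9 and pandas 2.3.3 and were tested on simulated data.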

Additional observations from a re-analysis of the deposited data

Results flagged for a closer look

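Between the early and the late progenitors and between the early and the late megakaryocytes, Esam moved in opposite directions. Its log2 ratio was -2.21 in HPC E10.5 against HPC E8.5 and 3.34 in Mk E10.5 against Mk E8.5. Plvap had a log2 ratio of -1.45 in the progenitors, 2.39 in the megakaryocytes and 2.75 in the endothelium over the same stages. These differences between lineages were not tested, since each population is 1 sample, and the Plvap megakaryocyte means lie under the minimum of 10 CPM.

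The authors' filter left out 19 of the 80 captured Endo E10.5 cells, which had a median total of 415116 counts. The set was present in these cells too. All 19 held Cdh5, Pecam1, Icam2 and Mcam. Esam, Plvap and Emcn were in 18 of them, Cd34 in 17, Eng in 13 and Cldn5 in 12.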

How the results depend on the processing

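No log2 ratio called at 4-fold changed sign under any alternative run. Of the ratios recomputed for single genes, 470 moved by at most 1.5 times and 360 by more. Detection at 10 counts lowered the number of genes found in at least 50% of cells from 1 to 0 in E7.75, from 8 to 5 in HPC E8.25 and from 2 to 0 in Mac, and thinning also gave 0 in Mac. Leaving out cells with endothelial markers gave 4 in HPC E8.25. The share of cells with at least 5 genes, at 10 counts, was 1.36% in E7.25, 60.3% in HPC E8.25, 60.7% in HPC E8.5, 19.6% in HPC E9.5, 23.0% in HPC E10.5 and 0 in both Mk. It was 28.9% in HPC E9.5 and 0 in Mk E8.5 when thinned, and 53.6 and 52.8% in HPC E8.25 and HPC E8.5 without marked cells.

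For E7.75 against E7.25, 0 genes became 2 with a pseudocount of 0.1 or total-count scaling, 1 with no minimum, and 1 or 2 by lane. For HPC E10.5 against E8.5, the 4 lower genes became 2 by mean logs. They became 1, the gated Cdh5, with a pseudocount of 10 or without marked cells. By medians, Icam2 was past 4-fold higher there, with a log2 ratio of 2.26, and also against HPC E9.5, with 3.46. For HPC E8.5 against E8.25, 0 lower genes became 1, Cdh5, without marked cells, by means but not by medians (13.5 and 14.3 CPM). For HPC E10.5 against E9.5 the 1 gene became 0 by mean logs, with a pseudocount of 10 or without marked cells. For Mk E10.5 against E8.5 the 1 gene became 3 with no minimum. For Endo E10.5 against E8.5 the 2 genes became 0 by medians and 1 by mean logs or a pseudocount of 10. The causes were not tested.

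No paired analysis was possible because the results come from no test, and replicate numbers only name cells. Means over the cells of 1 sample carry no error between embryos. Thinning left out 40 cells, 16 of them of E7.75 and 13 of HPC E10.5. Within a population, the number of genes found went with total counts at a rho of -0.06 to 0.25 in 11 populations and 0.45 in Mac.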

Other observations

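Other genes of junctions and the endothelial surface were read from a list of 35, of which 34 were in the tables. In Endo E8.5 against HPC E8.5, 27 of the 34 passed the minimum. Of these, 13 were at least 4-fold higher and 0 lower, compared with 7.39% of all genes higher. The median log2 ratio over all 34 was 1.59. The 4 largest were Cd109 with 4.04, the C-type lectin Clec14a with 3.84, Mllt4, which encodes afadin, with 3.21 and the nectin gene Pvrl2 with 2.97. In Endo E10.5 against HPC E10.5, 21 of the 28 passing were higher, compared with 17.3% of all genes. The median over all 34 was 3.48. The 4 largest were Clec14a with 8.61, Gja5 with 8.12, the guidance receptor Robo4 with 7.83 and Gja4 with 7.09.

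In HPC E10.5 against HPC E8.5, 10 genes of the list were lower, where 2.96% of all genes were lower, and 1 was higher, Icam1 with 2.85. In Endo E10.5 against Endo E8.5, 5 were higher, where 8.67% of all genes were higher. They were the gap junction genes Gja5 with 6.87, Gja4 with 4.25 and Gjc1 with 2.13, Robo4 with 3.25 and the thrombin receptor gene Thbd with 2.03. In Mk E10.5 against Mk E8.5, Gja1, another gap junction gene, was at least 4-fold lower, where 3.26% of all genes were lower. Genes beyond the 4 largest of the comparisons with progenitors were named after their values were seen.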
